A study of Homo sapiens with 4 samples.

Results

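The neighbourhood of PRAM1, MYO1F and NFILZ is a stretch of chromosome 19 that runs from 50 kb before the PRAM1 gene body to 50 kb after that of NFILZ, chr19:8504940-8841414 in the hg19 assembly. It spans 336 kb and holds or touches 8 protein-coding genes, of which 3 give it its name. It was chosen by the many ATAC-seq peaks that the ATRA lists held near MYO1F and the control lists did not, so the presence, width and score of its peaks are a description and were not tested. All peaks of the 4 deposited lists in this stretch were taken, which gave 50 peaks of 195019 in all. Merging peaks that overlapped by at least 1 bp left 20 regions of 78063, numbered here 1 to 20 from HNRNPM towards OR2Z1.

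ATAC-seq marks open chromatin, where the Tn5 transposase can insert sequencing adapters. All libraries came from HL-60, a single leukemia cell line of the myeloid lineage, so they share 1 genome, and none is from a patient's own cells. ATRA-treated cells were given 1 µM all-trans retinoic acid (ATRA) dissolved in ethanol for 4 days, control cells were given the same volume of ethanol for 4 days, and in both groups the medium was changed and the agent added again at day 2. Each group had 2 replicates. The lists held between 42081 and 63541 peaks, with most and widest in ATRA replicate 2, and they carry no read counts, so the depth of each library is unknown. Of 9 myeloid marker genes, SPI1, CEBPE, CD33 and LYZ had a promoter peak in all 4 lists, whereas AZU1 and ELANE had one in none. MPO had one in ATRA replicate 2 and control replicate 2, PRTN3 in ATRA replicate 2, and CEBPA in every list but control replicate 2. CD3E, MS4A1, EPCAM, ALB and HBB, markers of other cell types, had a promoter peak in no list.

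Retinoic acid binds nuclear receptors that sit on DNA as pairs, and in myeloid leukemia cells it sets off maturation towards granulocytes. MYO1F encodes a long-tailed class I myosin, an actin-based motor of neutrophils and other immune cells. PRAM1 encodes a cytoplasmic adaptor related to FYB1 and found in myeloid cells, whose expression is lowered by the PML-RARA fusion protein and raised by retinoic acid, and NFILZ encodes a basic leucine zipper protein resembling NFIL3.

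The sequences of 6 regions without a control peak are shown because the description turns on them. They are the 5 that ranked highest in the ATRA lists by the mean score percentile, defined below with the values, among those with no UTR in their central 200 bp, and region 12, singled out after its values were seen as the nearest to the MYO1F start site on its upstream side. Each is the central 200 bp of the merged region, read on the plus strand of the GRCh37 (hg19) reference genome, and capitals mark a match on either strand to a motif searched.
Region 11, MYO1F intron, chr19:8635924-8636123: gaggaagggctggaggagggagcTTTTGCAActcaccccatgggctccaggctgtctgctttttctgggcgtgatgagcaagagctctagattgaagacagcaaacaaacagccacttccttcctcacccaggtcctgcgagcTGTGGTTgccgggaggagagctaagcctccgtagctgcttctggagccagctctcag
Region 12, upstream of MYO1F, chr19:8643833-8644032: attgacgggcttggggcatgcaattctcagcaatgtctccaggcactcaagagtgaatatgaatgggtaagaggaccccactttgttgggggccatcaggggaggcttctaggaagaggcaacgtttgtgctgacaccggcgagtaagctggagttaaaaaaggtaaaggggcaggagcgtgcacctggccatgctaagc
Region 15, NFILZ intron, chr19:8749898-8750097: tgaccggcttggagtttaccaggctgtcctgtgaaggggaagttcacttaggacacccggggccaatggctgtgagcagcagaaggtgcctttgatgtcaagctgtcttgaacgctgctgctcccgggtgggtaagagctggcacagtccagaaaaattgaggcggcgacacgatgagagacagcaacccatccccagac
Region 16, NFILZ intron, chr19:8756001-8756200: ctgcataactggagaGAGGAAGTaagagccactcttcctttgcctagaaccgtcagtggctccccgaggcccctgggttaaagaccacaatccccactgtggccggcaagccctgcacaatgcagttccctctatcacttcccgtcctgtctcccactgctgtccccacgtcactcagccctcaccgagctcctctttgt
Region 18, NFILZ intron, chr19:8764221-8764420: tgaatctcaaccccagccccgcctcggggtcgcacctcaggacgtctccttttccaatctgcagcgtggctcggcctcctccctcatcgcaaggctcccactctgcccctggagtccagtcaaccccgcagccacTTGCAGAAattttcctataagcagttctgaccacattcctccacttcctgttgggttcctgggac
Region 20, between NFILZ and ACTL9, chr19:8804673-8804872: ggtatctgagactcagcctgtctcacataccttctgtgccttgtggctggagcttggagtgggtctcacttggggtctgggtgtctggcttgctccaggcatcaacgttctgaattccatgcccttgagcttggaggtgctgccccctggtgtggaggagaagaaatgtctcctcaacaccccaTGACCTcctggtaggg

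The motifs were searched on both strands. PU.1, an ETS factor of myeloid cells, was searched as GAGGAAGT. The CEBP factors, which act in granulocyte maturation, were searched as TTGCNNAA. RUNX factors were searched with the letters AACCACA. For the GATA factors of blood progenitors the letters were AGATAA, with TGATAA allowed as well. AP-1 was searched as TGACTCA, whose reverse complement is its other common form. The hexamer that retinoic acid receptors and related nuclear receptors bind was searched as AGGTCA, and a match to GGGTCA was also counted. A DR5, the repeat classically bound by retinoic acid receptors, was searched as 2 such hexamers 5 bases apart, and CTCF by its consensus. Region 11 held a CEBP and a RUNX motif, region 16 a PU.1 motif, region 18 a CEBP motif and region 20 a hexamer. The central 200 bp of regions 12 and 15 held none of these letters. Outside its centre, region 12 held PU.1 and CEBP letters and region 15 held CEBP letters.

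Open chromatin in this neighbourhood differed between the groups mainly by peaks that were in the ATRA lists alone. ATRA replicate 1 had 17 peaks here, ATRA replicate 2 had 20, control replicate 1 had 7 and control replicate 2 had 6. The ATRA peaks covered 6668 bp in ATRA replicate 1 and 10352 bp in ATRA replicate 2, while control peaks covered 2483 bp in the first replicate and 1671 bp in the second. Both ATRA lists were thus above both control lists, in number and in length covered. Genome-wide, ATRA replicate 1 held 43494 peaks, ATRA replicate 2 held 63541, control replicate 1 held 42081 and control replicate 2 held 45903. Whether list size had a part in this difference was not tested.

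**Figure D1:**
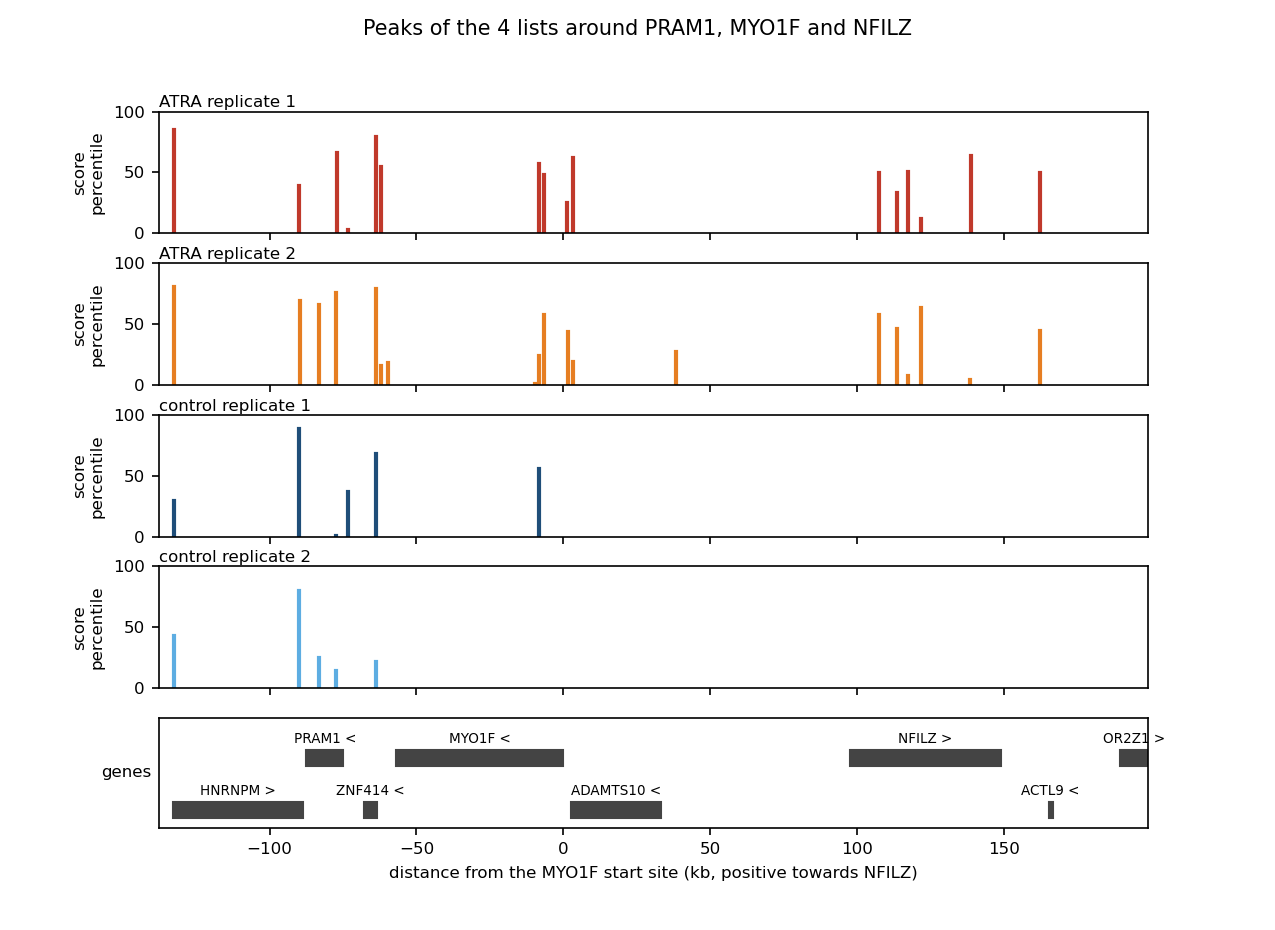
Peaks of the 4 lists along the neighbourhood, with the distance from the MYO1F start site in kb on the x axis. Each bar is 1 region with a peak in that list. Its height is the percentile, within that list, of the score of its highest-scoring peak there. Arrows after gene names give the strand; no bar of a control list lies to the right of the MYO1F start site, and 9 regions with bars in both ATRA lists lie past the last control peak.

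A region was called convincing for a group when peaks of its replicates overlapped, and ATRA-specific when no convincing control region overlapped it. ATRA-only is the stricter class, with no peak in either control list. The neighbourhood held 15 convincing ATRA regions, of which 11 were ATRA-specific and 10 were ATRA-only. Over all convincing ATRA regions of the 37737 in the series, 37.3% were ATRA-specific and 18.5% ATRA-only. Among 31403 convincing control regions of the series 23.7% were control-specific, and the neighbourhood held 0 of these. The other 4 convincing ATRA regions overlapped control regions. Since the stretch was chosen on these values, nothing follows from its distance to the genome-wide shares. When each list was cut to the same number of best-scoring peaks, 6 regions (11, 12, 15, 16, 18 and 20) were ATRA-specific, and all of them ATRA-only. Under that cut 32.2% of convincing ATRA regions of the series were ATRA-specific and 14.6% ATRA-only. With the best-scoring 50% of each list, 3 regions were ATRA-specific (1, 4 and 6), all of which were in all 4 full lists, and none of the 10 ATRA-only regions named here was among them. The series shares were then 39.1% ATRA-specific and 19.6% ATRA-only.

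The remaining 5 of the 20 regions were less reproducible. Regions 8, 9 and 14 were in ATRA replicate 2 alone, with score percentiles between 0.746 and 27.0. Region 3, in a PRAM1 intron, had a peak in ATRA replicate 2 and control replicate 2, and region 5, 1797 bp upstream of the PRAM1 start site, in ATRA replicate 1 and control replicate 1. Over all regions of the series, 22.9% were in 1 ATRA list alone and 8.87% in 1 list of each group. No region of the neighbourhood was in the control lists alone, beside 10.5% of the series in 1 control list only and 3.37% in both control lists only.

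At MYO1F, 4 regions with peaks in both ATRA lists flanked the start site, and the control lists held a peak in 1 of them. The gene lies on the minus strand at chr19:8585662-8642461 (ENSG00000142347.19_12). Width is given below in bp, and the score percentile is the percentage of a list's own peaks with a lower score, ties taking their mean rank. It was used since scores of different lists need not share a scale. Where a list had several peaks in a region, the highest score and the summed width were taken. Region 10 (chr19:8633943-8634392), in an intron 8155 bp downstream of the start site, was 395 bp wide at percentile 56.7 in ATRA replicate 1 and 369 bp at 24.0 in ATRA replicate 2. It had a control peak as well, 353 bp wide at percentile 55.2 in control replicate 1, and none in control replicate 2. Region 10 was therefore ATRA-specific by the rule on replicates without being absent from the control cells.

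Region 11 (chr19:8635771-8636276), in an intron 6299 bp downstream of the start site, had no control peak. It was 396 bp wide at percentile 48.1 in ATRA replicate 1 and 403 bp at 57.8 in ATRA replicate 2, so the replicates gave close values for it. Upstream of the gene, region 12 (chr19:8643581-8644284) lay 1471 bp from the start site, between MYO1F and ADAMTS10, which encodes a secreted metalloprotease. It was 274 bp wide at percentile 24.6 in ATRA replicate 1 and 704 bp at 43.7 in ATRA replicate 2. Region 13 (chr19:8645632-8646141) lay 3425 bp upstream of the MYO1F start site and overlapped coding and UTR exon sequence at the 3′ end of ADAMTS10 and an exon of a long non-coding RNA. It was 344 bp wide at percentile 62.1 in ATRA replicate 1 and 474 bp at 18.8 in ATRA replicate 2. The replicates put regions 12 and 13 in opposite order, region 13 higher in the first and region 12 higher in the second. No list had a peak within 1 kb upstream to 100 bp downstream of a MYO1F start site, the span used here for promoters.

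**Figure D2:**
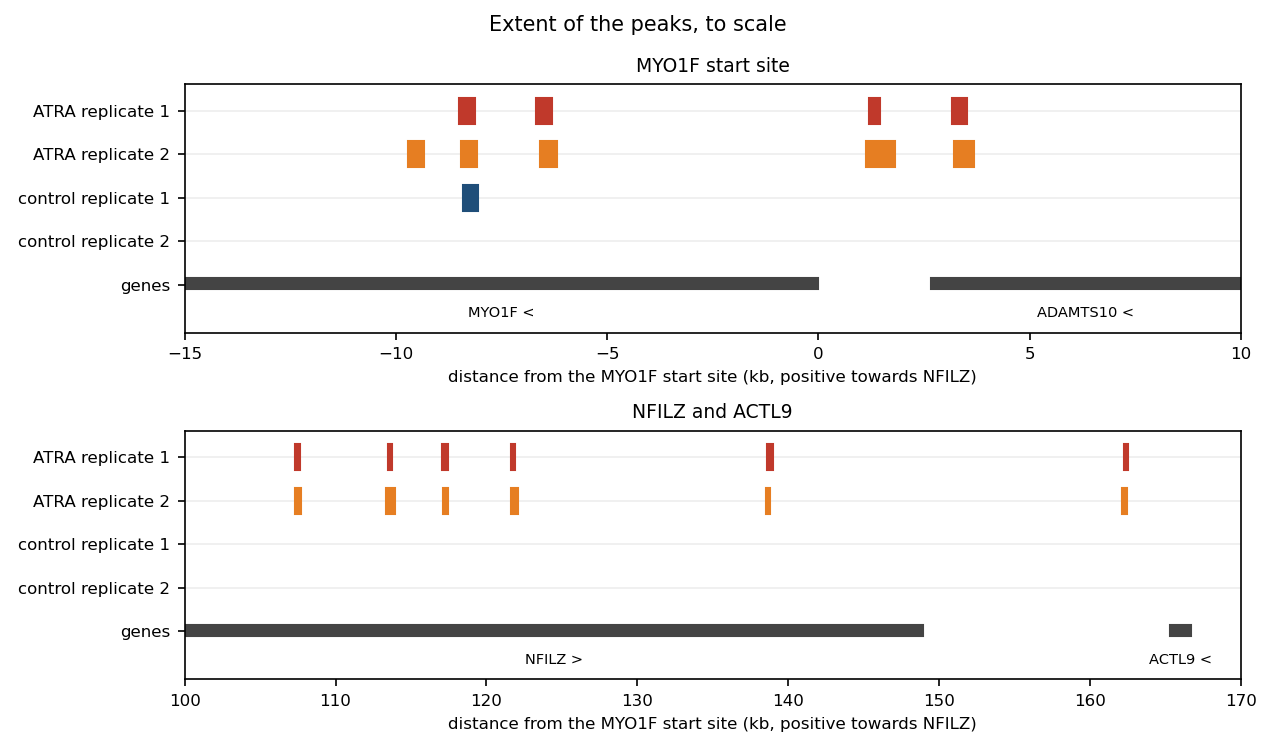
Extent of the peaks to scale near the MYO1F start site (upper panel) and in NFILZ and up to ACTL9 (lower panel), against distance from the MYO1F start site in kb; each block is 1 peak of the list named at the left. The single control block of both panels is that of control replicate 1 in region 10, while 4 pairs of ATRA blocks lie near MYO1F and 6 lie in the lower panel.

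NFILZ, on the plus strand at chr19:8740083-8791414 (ENSG00000268480.4_11), held 5 ATRA-only regions in its introns and no peak of a control list. Region 15 (chr19:8749801-8750195) was 313 bp wide at percentile 49.6 in ATRA replicate 1 and 395 bp at 57.7 in ATRA replicate 2. Region 16 (chr19:8755791-8756411) was 283 bp wide at percentile 33.4 in ATRA replicate 1 and 621 bp at 46.4 in ATRA replicate 2. Both ranked somewhat higher in the second replicate. Region 17 (chr19:8759533-8759944) was 349 bp wide at percentile 50.4 in ATRA replicate 1 and 395 bp at 7.37 in ATRA replicate 2. Region 18 (chr19:8764065-8764577) was 283 bp wide at percentile 11.6 in ATRA replicate 1 and 513 bp at 62.9 in ATRA replicate 2. Region 19 (chr19:8781016-8781431) was 350 bp wide at percentile 63.9 in ATRA replicate 1 and 250 bp at 3.98 in ATRA replicate 2. The ranks of the last 3 regions thus depended on the replicate, in the middle or above in one list and in the lowest part of the other. Region 18 lay 692 bp upstream of an internal NFILZ start site, which made it the only ATRA-only region of the neighbourhood at a promoter as defined here. The start site at the 5′ end of the gene had no peak in its promoter span in any list.

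A pair of ATRA-only regions lay outside the MYO1F and NFILZ groups. Region 7 (chr19:8580107-8580684), between genes and 1344 bp upstream of the start site of the zinc finger gene ZNF414, was 460 bp wide at percentile 54.4 in ATRA replicate 1 and 578 bp at 15.9 in ATRA replicate 2. Region 20 (chr19:8804579-8804966), past the 3′ end of ACTL9, an actin-like gene of the testis, was 271 bp wide at percentile 49.3 in ATRA replicate 1 and 334 bp at 44.5 in ATRA replicate 2. Region 20 was the last region before the NFILZ end of the stretch, 36.4 kb inside it.

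Over the 10 ATRA-only regions, the score percentile ranged from 11.6 to 63.9 in ATRA replicate 1 (median 49.4) and from 3.98 to 62.9 in ATRA replicate 2 (median 44.1). Across all 6976 ATRA-only regions of the series the median was 32.7 in ATRA replicate 1 and 43.8 in ATRA replicate 2. These regions were thus of middling rank in both lists, with 4 of 10 above the 50th percentile in ATRA replicate 1 and 3 of 10 in ATRA replicate 2. ATRA replicate 2 gave the wider peak in 9 of 10 and the higher percentile in 5 of 10. The median peak of the whole list was also wider in ATRA replicate 2, at 416 bp against 328 bp in ATRA replicate 1. Whether the wider list had a part in the wider peaks here was not tested. By place, 5 of the 10 lay in NFILZ introns, 1 in a MYO1F intron, 1 over an exon and 3 between genes.

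**Figure D3:**
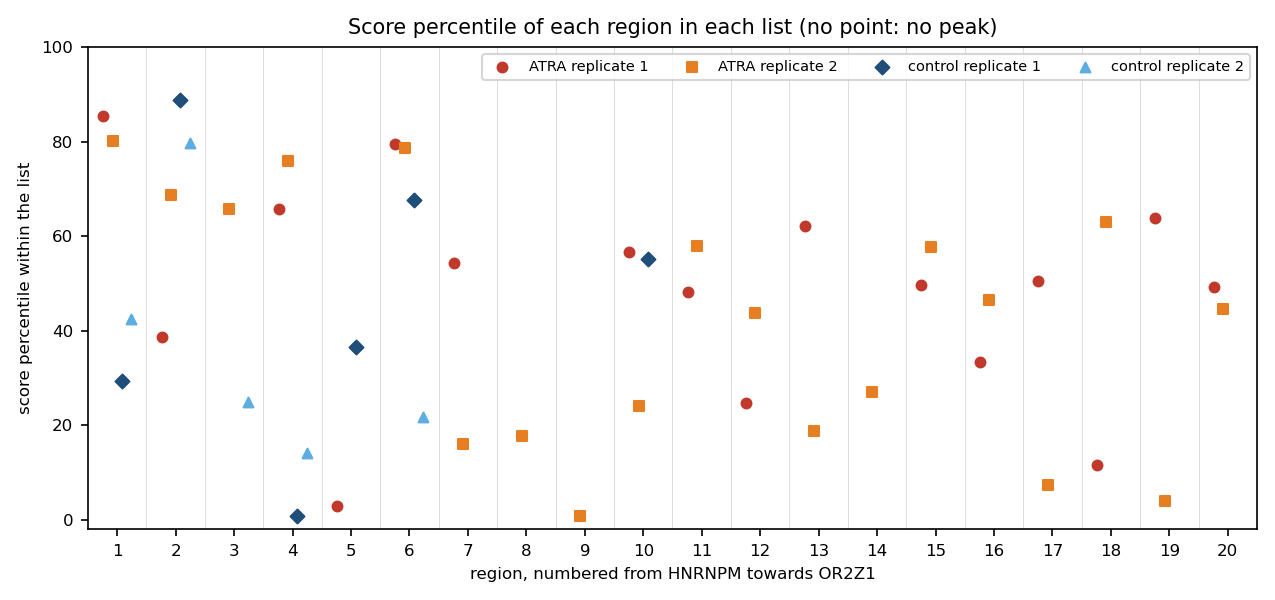
Score percentile within its own list (y axis) of each of the 20 regions (x axis, numbered from HNRNPM towards OR2Z1), with 1 point for each list that has a peak there. From region 11 on there are no control points, and the ATRA points of that part lie between 3.98 and 63.9.

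PRAM1, on the minus strand at chr19:8554940-8567524 (ENSG00000133246.12_11), showed another pattern, with an intronic region that was open in all 4 lists and ranked higher after ATRA. Region 4 (chr19:8564769-8565722), 2273 bp downstream of the start site, was 708 bp wide at percentile 65.8 in ATRA replicate 1 and 954 bp at 75.8 in ATRA replicate 2. In control replicate 1 it was 257 bp wide at percentile 0.821, and in control replicate 2 it was 210 bp wide at 14.2. The ATRA and control values did not overlap, either in rank or in width. No list had a peak at a PRAM1 promoter. Of the 8 genes of the neighbourhood, HNRNPM had a promoter peak in all 4 lists, ZNF414 in all but control replicate 2, NFILZ in both ATRA lists, and the other 5 in none.

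Of the 4 regions in all lists, 3 ranked higher in both ATRA lists than in both control lists. Of such regions in the series, 29.2% of 23653 did, and 12.8% ranked lower in both. Region 1, at the promoter of HNRNPM, which encodes a splicing regulator, was at percentile 85.3 and 80.2 in ATRA replicates 1 and 2 and at 29.3 and 42.5 in control replicates 1 and 2. Region 6, at the start of ZNF414, was at 79.5 and 78.6 in the ATRA replicates and at 67.6 and 21.7 in the control replicates. Region 2, at the 3′ end of HNRNPM, went the other way, at 38.6 and 68.6 in the ATRA replicates and 88.7 and 79.6 in the control replicates. By the percentile of width, 2 of the 4 were higher in both ATRA lists, against 23.7% of such regions in the series. These ranks were among the values the stretch was chosen on, so no test was made of them.

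The ATRA-only regions were not spread evenly along the stretch. The last control peak ended in the MYO1F intron at region 10, and the next lay past the end of the neighbourhood. The 309 kb between them, chr19:8634393-8943131, held 9 ATRA-only regions and no peak of either control list. Over the whole genome 54741 such stretches separate neighbouring control peaks, 5933 hold at least 1 ATRA-only region, and no other held 9. The mirror count, control-only regions in a stretch without an ATRA peak, reached at most 4, from 2633 control-only regions in 67579 stretches against 6976 ATRA-only regions, so the 9 and the 4 are not on an equal base. The stretch was noticed in these data, and 1184 stretches (2.16%) were at least as long. When each list was cut to the same number of best-scoring peaks it held 6, and no other stretch held as many. With the best-scoring 50% of each list, the highest count in the genome was 8, and 3172 stretches held at least 1. No stretch of the neighbourhood then held more than 1, and the 309 kb stretch kept none of its 9. Leaving out a library let other stretches reach it: it held 10 without ATRA replicate 1, when 4 stretches including it held 10 or more and the highest held 13, and 9 without control replicate 2, when 3 held 9 or more and the highest held 11. Without ATRA replicate 2, it was 1 of 2 stretches with 9, and without control replicate 1, which also removed the peak in region 10, it grew to 364 kb and held 11, which no other stretch did.

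Within that stretch the regions fell into groups. Regions 11 to 13 lay around the MYO1F start site, then came gaps of 34.5 kb and 68.8 kb on either side of region 14, and regions 15 to 18 lay 3.12 to 5.59 kb apart in NFILZ. The nearest region outside the neighbourhood on the PRAM1 side, 15.8 kb beyond its edge at chr19:8488840-8489152, also had peaks in both ATRA lists, at percentiles 50.8 and 38.2, and in no control list. On the NFILZ side the nearest, 101 kb beyond the edge, was the region that ended the control-free stretch and was in all 4 lists at percentiles 96.2 to 99.0.

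Counting regions within 50 kb of each gene body placed these genes among all 20176 protein-coding genes. The stretch was chosen on its peaks, so nothing follows from the places of its genes. Longer genes also had a longer span counted, and MYO1F is 56.8 kb long and PRAM1 12.6 kb. NFILZ had 6 ATRA-specific, 0 control-specific and 0 overlapping regions, and 294 genes (1.46%) had at least as many ATRA-specific ones. MYO1F had 5 ATRA-specific, 0 control-specific and 3 overlapping regions, and 700 genes (3.47%) had at least 5. PRAM1 had 1 ATRA-specific, 0 control-specific and 4 overlapping regions. At least 1 ATRA-specific region was found near 64.5% of all genes and at least 1 control-specific region near 39.0%, so the count of PRAM1 was an ordinary one. Among the neighbours, HNRNPM had 3 ATRA-specific regions, ADAMTS10 and ACTL9 had 4 each, and ZNF414 and the olfactory receptor gene OR2Z1 had 1 each. Genes so close together share regions, so these counts are not independent. The 3 counts of MYO1F were matched exactly by 32 genes outside the neighbourhood, the first 5 of which by name were ABHD17A, CA11, CBLC, CDC37 and DDN.

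**Figure D4:**
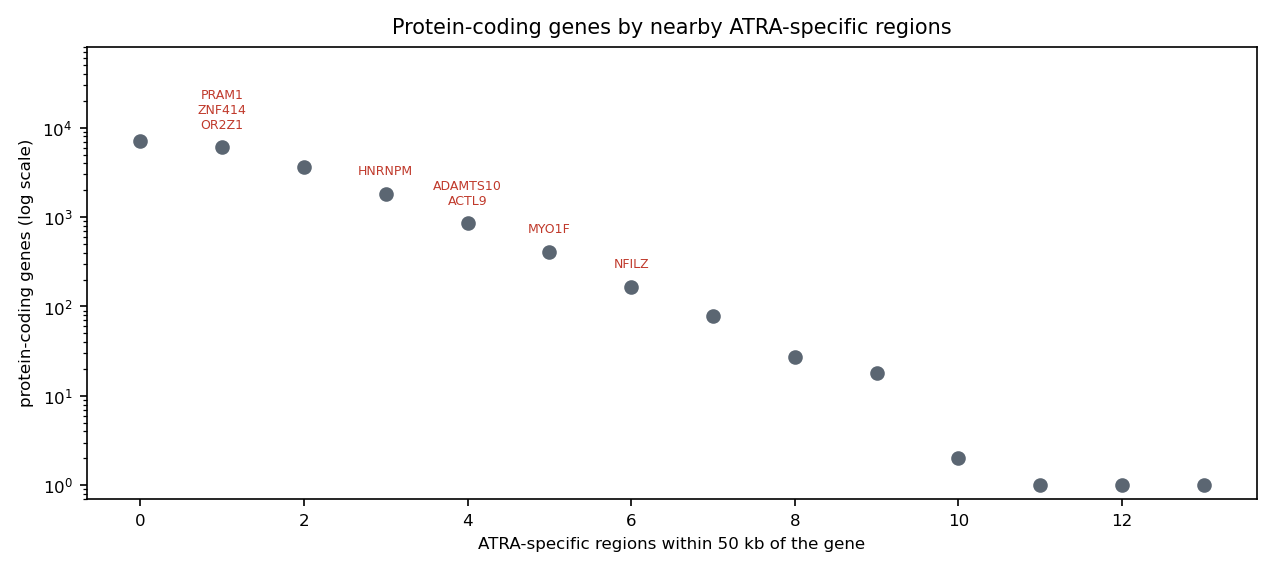
Number of protein-coding genes (y axis, log scale) by the number of ATRA-specific regions within 50 kb of the gene body (x axis), with the 8 genes of the neighbourhood named above their points, each of which is the number of genes with that count. MYO1F stands at 5 and NFILZ at 6, while PRAM1 stands at 1 with ZNF414 and OR2Z1.

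Related genes were described from lists drawn from general knowledge of the families. Of 7 class I myosins, 4 had an ATRA-specific region within 50 kb and 4 had a control-specific one, with medians of 2 and 1, beside 64.5% and 39.0% of all genes and medians of 1 and 0. MYO1D had 5 ATRA-specific regions like MYO1F, but also 1 control-specific region. MYO1E, the other long-tailed class I myosin, had 0 ATRA-specific and 3 control-specific regions, MYO1H had 2 of each, and MYO1A and MYO1C had 0 of each. MYO1G, a myosin of blood cells, had 2 and 1 and a promoter peak in all 4 lists. MYO1F was the only one of the 7 with ATRA-specific and without control-specific regions. The stretch was chosen for its peaks near MYO1F, so nothing follows from this difference.

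All 8 genes of the PRAM1 list, its relatives and signalling partners, had an ATRA-specific region nearby, and 3 had a control-specific one, with medians of 3 and 0, beside 64.5% and 39.0% of all genes and medians of 1 and 0. LCP2, which encodes the adaptor SLP-76, had 6 ATRA-specific and 1 control-specific region, and FYB1, the closest relative of PRAM1 in the list, had 4 and 0. The adaptor genes SKAP2 and SKAP1 had 3 and 0 and 4 and 1, the kinase gene LYN 3 and 2, and FYB2 and the actin-binding adaptor gene DBNL 2 and 0 each. PRAM1 itself, which lies in the chosen stretch, had the fewest ATRA-specific regions of its list. All 5 genes of the NFIL3 list, basic leucine zipper factors that include the circadian regulators DBP, TEF and HLF, had an ATRA-specific and none a control-specific region, with medians of 2 and 0, beside the same shares and medians over all genes. Among them is NFILZ, for whose surroundings the stretch was chosen. NFILZ had the most, 6, followed by DBP with 5, TEF with 2, and NFIL3 and HLF with 1 each.

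Sequence had no part in the choice of the regions, and their motifs were described beside those of all regions of each class. In the central 200 bp, PU.1 letters were in 1 of the 11 ATRA-specific regions of the neighbourhood, against 11.1% of ATRA-specific, 7.90% of control-specific and 6.61% of overlapping regions in the series. CEBP letters were in 2 of 11, against 13.7% of ATRA-specific regions in the series, RUNX in 3 against 10.3%, GATA in 2 against 14.7%, and AP-1 in 1 against 7.10%. The hexamer was in 3 of 11, against 20.6%, and a DR5 in 0, against 0.0853%. Control-specific regions of the series held CEBP letters in 12.7%, RUNX in 11.3%, GATA in 30.6%, AP-1 in 6.14% and the hexamer in 14.7%. In overlapping regions of the series the shares were 10.4%, 7.11%, 14.4%, 4.88% and 16.7%, in the same order. A DR5 was in 0.0269% of control-specific and 0.0127% of overlapping regions. Whether the counts of the neighbourhood differ from the genome-wide shares was not tested. In the whole region in place of its centre, PU.1 letters were in 3 of 11 and CEBP letters in 5, against 15.0% and 25.5% of ATRA-specific regions in the series. The whole-region shares of PU.1 and CEBP letters were 9.79% and 21.3% in control-specific regions, and 12.0% and 28.1% in overlapping regions.

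No motif was common to all of these regions. Besides those printed above, region 10 held an AP-1 motif and a hexamer, region 17 a RUNX and a GATA motif and region 19 a GATA motif, and region 13 held none at its centre and GATA and CTCF letters elsewhere in the region. A match shows the letters only and does not show that a factor was bound. The GC content of the central 200 bp ranged from 38.5% in region 17 to 59% in region 18, with a median of 57% over the 11 regions against 47% over all ATRA-specific regions. Over the 4 overlapping regions of the neighbourhood it ranged from 55% to 76.5%, with a median of 66% against 52% in the series.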

How the data were processed

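ATAC-seq peaks of 4 HL-60 libraries, 2 of ATRA-treated and 2 of control cells, grouped by their titles, were analysed. Per the labels and the methods, the authors removed adapters with cutadapt, aligned reads to hg19 with Bowtie2, the name in the submitters' processing notes, and called peaks per library with MACS2 at default settings. The deposited score, from 50 to 3100, has no stated scale, so it was used only as a percentile within its list. Whether reads were shifted to the cut site, duplicates removed or blacklisted regions filtered is not given in the sources used here. The labels give 15 PCR cycles, and the methods another number. Depth was unknown, and deeper libraries can give more and wider peaks.

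Overlaps, merging and motif searches used Python 3.11.15 and numpy 2.4.6. The overlaps and merging that class the regions were tested on simulated data. Figures used matplotlib 3.10.9. Genes were those of GENCODE 44 lifted to GRCh37, 0 peaks lay past a chromosome end, and coordinates are 1-based. The genes named were PRAM1, MYO1F, NFILZ, the other protein-coding genes in or touching the neighbourhood, the marker genes, 3 lists of related genes and the 5 genes most like MYO1F by the numbers of ATRA-specific, control-specific and overlapping regions within 50 kb. Regions with peaks in both libraries of a group were given in full. Sequences were shown for the 5 ATRA-only regions highest by mean percentile, leaving out UTRs, and for region 12. The members, lists and rules were chosen with earlier results of these data known. Alternatives were the overlap, the number of peaks per list, the peak width, the flank, the measure of rank, the motif span and leaving out each library. Of the marker genes, related genes and sequences chosen, 1 of each is not reported here.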

Additional observations from a re-analysis of the deposited data

How the results depend on the processing

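Of 50 alternative values, 38 stayed within 1.5 times the main count and 12 moved. With the same number of best-scoring peaks in each list, ATRA-specific and ATRA-only regions both numbered 6. With the best-scoring 50% of each list, 3 regions were ATRA-specific, 2 ATRA-only, 1 control-specific and 0 overlapping. No control-free stretch of the neighbourhood then held more than 1 ATRA-only region, where the highest in the genome held 8. A flank of 100 kb gave 7 overlapping regions, and searching whole regions gave 3 with PU.1 and 5 with CEBP letters. Leaving out each library gave 10 to 16 ATRA-specific, 0 to 1 control-specific, 4 to 5 overlapping and 10 to 13 ATRA-only regions, and 9 to 11 ATRA-only regions in the control-free stretch. The 16 came without ATRA replicate 1, when 55.4% of all ATRA regions were specific. The 1 control-specific region was region 3 without control replicate 1 and region 5 without control replicate 2. Each of these had a peak in 1 ATRA list as well. The alternatives for the stretch were chosen after seeing the data. The cause was not tested for any of these. No paired analysis was possible because the results come from no test. Without read counts, an absent peak and a peak just under the caller's threshold cannot be told apart.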
